A study of Mus musculus with 8 samples.

Results

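Mitochondrial ribosomal proteins are encoded in the nucleus by the *Mrpl* and *Mrps* genes, made in the cytosol and imported into mitochondria. There they join ribosomal RNAs of the mitochondrial genome to form a large (*Mrpl*) and a small (*Mrps*) subunit, the ribosome that translates the few respiratory chain and ATP synthase proteins encoded by mitochondrial DNA. Some of them are homologues of bacterial ribosomal proteins and others are found only in mitochondrial ribosomes, and in muscle, a tissue rich in mitochondria, inherited defects of several of them cause respiratory chain disease. The members described here are all genes of the array whose symbol is *Mrpl* or *Mrps* followed by a number and at most 1 letter. There are 77 of them among the 22664 genes named in the table, which are measured by 22206 probe sets (groups of short probes read together). The genes are picked by symbol alone. Signal would decide only between several probe sets of a gene, and each member has 1.

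The data come from gastrocnemius (GAS) muscle of male C57/Bl6j mice. Mice aged about 10 weeks received an adeno-associated virus (AAV) of a serotype that enters muscle cells, which expressed from a U6 promoter either an sh-RNA against MYTHO (group AAV sh-RNA MYTHO, called MYTHO-KD here) or a scramble sh-RNA (group AAV sh-RNA scrmb, called scramble). According to the series' design, the scramble virus went into the leg opposite the MYTHO-KD leg, so both groups carried a virus and both were aged 22 weeks at sampling, 12 weeks after injection. Total RNA of 4 muscles per group was measured on Clariom S Mouse arrays, and the file used here holds the authors' average and standard deviation (SD) of the log2 signal in each group, not the values of single arrays. The U6 promoter is active in any cell the virus enters, and the RNA is that of the whole muscle.

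The targeted gene is listed as *D230025D16Rik*. Its average was 10.02 in scramble (SD 0.37) and 7.71 in MYTHO-KD (SD 0.66), so that it fell by 2.31 on the log2 scale to 20.2% of the scramble signal (standard error 0.304, adjusted p = 0.0138, limma's moderated test). Its call, like that of *Mrpl45* below, was lost without moderation of the variances (adjusted p = 0.173). The 9 fast muscle fibre markers had a mean signal of 19.27 in scramble and 19.31 in MYTHO-KD but this mean says little about change, because *Acta1*, *Atp2a1* and *Myh4* stood at the highest average of the array, 19.93 with an SD of 0.00 in both groups, and most others stood near it. *Myh1*, a fast myosin, was below that limit and higher by 0.59, from 17.58 to 18.17 (unadjusted p = 0.00873, adjusted p = 0.23, limma). *Ckm* was as far below the limit and differed by -0.05, from 17.85 to 17.80. Of the 9 markers, 2 were higher, 4 lower and 3 equal. Markers of other cells moved with the groups: all 9 macrophage markers were higher in MYTHO-KD (mean signal 7.17 in scramble and 8.22 in MYTHO-KD), as were all 7 fibroblast and matrix markers (10.49 and 11.47) and all 5 endothelial markers (10.88 and 11.38). At an unadjusted p under 0.05, 6 macrophage (66.7%), 3 fibroblast and matrix (42.9%) and 2 endothelial markers (40%) were higher, against 6.48% of all probe sets. Those with an adjusted p under 0.05 (limma) were *Cd68* (2.53), *Lyz2* (1.94), *Bgn* (1.94) and *Lum* (1.49). The 7 slow fibre markers had a median difference of -0.32 with 0 members at an unadjusted p under 0.05, and their SDs were large (median 1.11 in scramble and 2.14 in MYTHO-KD). The 5 lymphocyte markers (median difference -0.23) and the 3 adipocyte markers (-0.33) were all lower, none of them at an unadjusted p under 0.05. In these whole muscles, fewer cells of a type and less RNA per cell cannot be told apart, and the part of other cell types in the differences given here was not tested.

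Promoters of 3 members are shown first, because these genes had the largest fall (*Mrpl45*) and the largest positive differences (*Mrpl30* and *Mrpl55*) of the family. Each run is the 250 bases before the gene's start, on the coding strand, taken from RefSeq for the build GRCm38.p6, the build of the array's coordinates (mm10). *Mrpl45* lies at chr11:97315466-97315715, *Mrpl30* at chr1:37890227-37890476 and *Mrpl55* at chr11:59202236-59202485, all on the plus strand. Capitals mark matches, on either strand, to GCGCANGC, the core of the site bound by nuclear respiratory factor 1 (NRF1), a transcription factor of many nuclear genes for mitochondria.
Mrpl45: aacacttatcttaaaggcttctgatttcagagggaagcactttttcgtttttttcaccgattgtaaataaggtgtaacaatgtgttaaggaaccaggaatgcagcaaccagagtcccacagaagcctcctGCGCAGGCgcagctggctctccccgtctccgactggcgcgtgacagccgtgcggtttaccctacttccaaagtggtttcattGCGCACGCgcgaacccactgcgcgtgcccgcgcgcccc
Mrpl30: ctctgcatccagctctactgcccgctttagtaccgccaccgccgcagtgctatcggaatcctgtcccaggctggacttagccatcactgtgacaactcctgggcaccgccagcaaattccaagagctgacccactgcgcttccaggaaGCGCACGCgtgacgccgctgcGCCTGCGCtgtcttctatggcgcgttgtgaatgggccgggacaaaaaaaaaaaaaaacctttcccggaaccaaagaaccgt
Mrpl55: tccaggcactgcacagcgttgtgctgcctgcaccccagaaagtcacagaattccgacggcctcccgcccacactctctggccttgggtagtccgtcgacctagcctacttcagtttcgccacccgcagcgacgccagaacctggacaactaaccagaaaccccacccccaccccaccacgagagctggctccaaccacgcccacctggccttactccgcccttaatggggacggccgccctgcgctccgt

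The letters GCGCANGC occurred in 22 of 74 member promoters (29.7%), counted over 250 bases before to 50 bases after the start, against 9.95% of all 32851 promoters and 13.6% of those of genes on the array. Promoters were found for 68 of the 77 members, some with more than 1 start. CCGGAAGT, bound by ETS factors such as GABP, occurred in 16.2% of member promoters and in 5.21% of those of genes on the array. AAGATGGCG, bound by YY1, occurred in 10.8% and 1.92%, and the E-box CACGTG in 9.46% and 7.99%. Promoters and not genes were counted, and *Mrpl2* holds the E-box at each of its several starts, which raises that share. None of these 4 motifs contains another. At least 1 of the NRF1, ETS and YY1 letters stood in 39 of the 74 (52.7%), against 19% for genes on the array. The GC content was similar, with a median of 58.5% in member promoters and 57% for genes on the array. Among the 3 promoters printed, *Mrpl45*, which fell, and *Mrpl30*, which was higher, both hold NRF1 letters, and *Mrpl55* has no match to any of the 4 motifs. These are matches of letters, not measured binding. A list of 12 regulators of nuclear genes for mitochondria holds NRF1, GABP subunits and YY1 and also others such as *Sirt1* and *Nfe2l2*. Of these 12, 9 (75%) were higher, against 46.9% of all probe sets. None passed an unadjusted p of 0.05, at which 6.48% of all probe sets were higher and 5.52% lower. *Nrf1* differed by 0.26 (log2), *Gabpa*, the DNA-binding part of GABP, by -0.03 and *Yy1* by 0.17. The coactivator *Ppargc1b* (0.53, adjusted p = 0.458, limma) and its partner receptor *Esrra* (0.47, adjusted p = 0.434, limma) had the lowest p-values of this list.

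*Mrpl45* encodes a large-subunit protein that lies near the exit of the tunnel through which the new polypeptide leaves, and it takes part in holding the ribosome at the inner membrane. Its average was 12.06 in scramble (SD 0.18) and 10.42 in MYTHO-KD (SD 0.17), so that the distance between the groups was several times the spread within either. It fell by 1.64 on the log2 scale (standard error 0.166, 95% interval -2.00 to -1.28, adjusted p = 0.00515, limma's moderated test), leaving 32.1% of the scramble signal. It was the only member with an adjusted p under 0.05, a threshold passed by 0.275% of all probe sets. It was also the only member to pass the study's threshold of 2-fold with an unadjusted p under 0.05, passed by 1.12% of all probe sets. Over the whole array, 1 probe set had a lower p than *Mrpl45* and 8 had a larger fall. The call at the adjusted threshold rests on moderation, which draws the variance of each probe set toward that typical of the array: without it the adjusted p was 0.0634, and with unequal variances 0.0867, while the unadjusted p was at most 1.17e-05 in all 7 other settings of the test.

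*Mrpl45* (chromosome 11, 97315716 to 97329920, plus strand, mm10) is measured by 1 probe set that names no other gene. Neither of the genes next to it was lower at an unadjusted p under 0.05. *Gpr179*, which lies 2.19 kb beyond its end on the opposite strand, had averages of 6.63 in scramble and 6.41 in MYTHO-KD, a difference of -0.22 (adjusted p = 0.754, limma). *Npepps*, which encodes the puromycin-sensitive aminopeptidase and lies 35.1 kb before it on the opposite strand, was higher by 0.80, from 8.82 to 9.62 (unadjusted p = 0.00216, adjusted p = 0.146, limma). Farther out, *Socs7* differed by 0.23 and *Kpnb1*, an importin, by 0.22. *Mrpl10*, a member of the same family, ends 267 kb before *Mrpl45*, with 5 probe sets between them, and its difference had the opposite sign (0.52). The largest negative difference among the 10 neighbours was that of *Osbpl7* (-0.57, adjusted p = 0.258, limma), and *4933428G20Rik* (-0.43) was also lower at an unadjusted p under 0.05. The neighbours were chosen by position after the fall of *Mrpl45* had been seen.

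**Figure D1:**
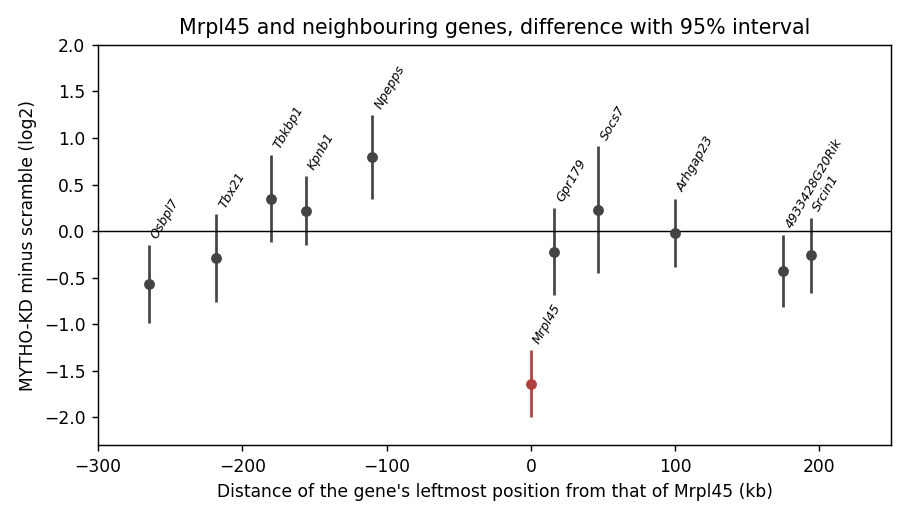
Difference between MYTHO-KD and scramble (log2, y axis) of *Mrpl45* and of the 5 genes of the array on either side, by distance in kb from the start of *Mrpl45* (x axis); bars are 95% intervals of limma's moderated test. *Mrpl45* lies at -1.64, and the 10 neighbours lie between -0.57 and 0.80.

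The other members differed far less, and most of them had a difference above 0. Of the 77 members, 57 were higher in MYTHO-KD, 19 were lower and 1 was equal, which makes 74% higher against 46.9% of all probe sets. The median difference was 0.15 (log2), with quartiles of 0.00 and 0.36, and over all probe sets it was -0.01, with quartiles of -0.19 and 0.17. At an unadjusted p under 0.05, 15 members (19.5%) were higher, against 6.48% of all probe sets, and 1 (1.3%), *Mrpl45*, was lower, against 5.52%. None of the 15 passed the adjustment over all probe sets, where the lowest adjusted p of a member other than *Mrpl45* was 0.194. Of the 77, 3 members were at least 1.5-fold higher, a size that 3.94% of all probe sets reached, so that the family was at the rate of the array. The count of 15 holds members close to the threshold, since 6 members had an unadjusted p between 0.04 and 0.06, and it lay between 12 and 17 in the other settings of the test. The members were measured in the same muscles and are not replicates of each other, so these counts are given as a description and no test was made over the family.

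**Figure D2:**
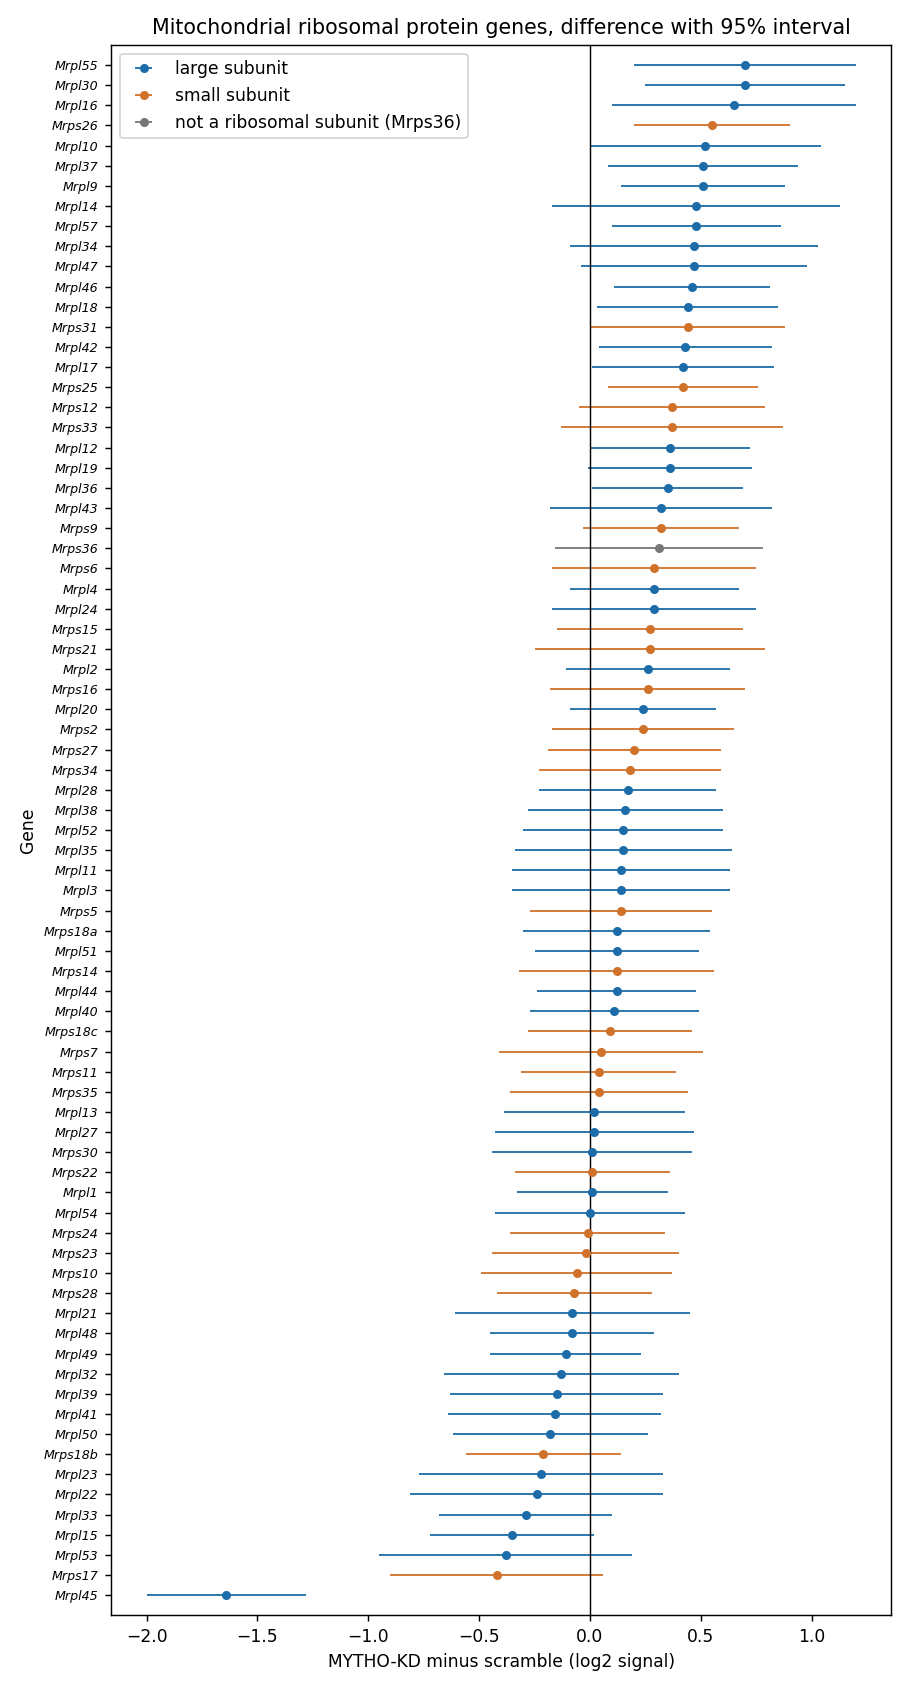
Difference between MYTHO-KD and scramble (log2, x axis) for each of the 77 genes (y axis, sorted), with 95% intervals from limma's moderated test and 4 arrays per group; colours give the subunit. *Mrpl45* stands apart at -1.64, while the others lie between -0.42 and 0.70.

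Among the large-subunit genes, *Mrpl30* and *Mrpl55* had the largest positive differences. The average of *Mrpl30*, a homologue of a bacterial ribosomal protein, was 11.22 in scramble (SD 0.25) and 11.92 in MYTHO-KD (SD 0.35), a difference of 0.70 (standard error 0.208, unadjusted p = 0.00574, adjusted p = 0.199, limma). That of *Mrpl55* was 10.59 (SD 0.42) and 11.29 (SD 0.29), also a difference of 0.70, with an adjusted p of 0.246. In both, the averages were apart by more than the SD of either group. *Mrpl16*, a homologue of the bacterial protein L16, had a similar difference with more spread. Its averages were 8.64 in scramble (SD 0.53) and 9.29 in MYTHO-KD (SD 0.26), a difference of 0.65 (adjusted p = 0.331, limma).

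The stalk of the large subunit, which recruits translation factors, is formed by the products of *Mrpl10* and *Mrpl12*, with that of *Mrpl11* at its base. *Mrpl10* was higher by 0.52, from 7.75 (SD 0.29) to 8.27 (SD 0.45), at an unadjusted p of 0.0490 (limma), which did not hold in 4 of the 7 other settings of the test (0.0513 to 0.108). *Mrpl12*, whose product is also reported to bind the mitochondrial RNA polymerase, went from 10.63 (SD 0.15) to 10.99 (SD 0.19), a difference of 0.36 with an unadjusted p of 0.0503 (limma), just outside the threshold, and passed it in 4 of those 7 settings (0.0248 to 0.0479). *Mrpl11* differed by 0.14 (95% interval -0.35 to 0.63), within the spread of the arrays. The stalk genes thus lay on both sides of the threshold, and all 3 differences were above 0.

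Of the other bacterial homologues of the large subunit, *Mrpl9* was 9.51 in MYTHO-KD (SD 0.06), higher than scramble (SD 0.25) by 0.51 (unadjusted p = 0.0105, limma). *Mrpl18*, which belongs to the central protuberance of the large subunit, was 11.45 (SD 0.28) and 11.89 (SD 0.22), a difference of 0.44. *Mrpl17* (0.42) and *Mrpl36* (0.35, from 5.31 to 5.66, the lowest averages of the family) also had an unadjusted p under 0.05. *Mrpl4* differed by 0.29 (95% interval -0.09 to 0.67). *Mrpl14* had the highest SD of the members, 0.59 in scramble and 0.43 in MYTHO-KD, and its difference of 0.48 was not distinguished from 0 (95% interval -0.17 to 1.13). *Mrpl34* was alike, with SDs of 0.57 in scramble and 0.19 in MYTHO-KD and a difference of 0.47 (95% interval -0.09 to 1.03).

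Of the 20 large-subunit genes found only in mitochondrial ribosomes, 12 (60%) were higher, against 46.9% of all probe sets, and 7 were lower. At an unadjusted p under 0.05, 4 (20%) were higher, against 6.48%, and 1 (5%) was lower, against 5.52%. *Mrpl37* was 9.98 in scramble (SD 0.38) and 10.49 in MYTHO-KD (SD 0.10), higher by 0.51. *Mrpl57*, also called Mrp63, was 10.77 (SD 0.09) and 11.25 (SD 0.28), higher by 0.48, and *Mrpl46* was 6.33 (SD 0.15) and 6.79 (SD 0.17), higher by 0.46. *Mrpl42* gave the brightest signal of the family, 15.97 (SD 0.19) and 16.40 (SD 0.24), and was higher by 0.43. All 4 had an unadjusted p between 0.0153 and 0.0330, and their adjusted p was 0.284 or more (limma). The 1 gene of this group that was lower at an unadjusted p under 0.05 was *Mrpl45*. *Mrpl44*, which resembles RNase III and is mutated in an infantile cardiomyopathy, differed by 0.12 (95% interval -0.24 to 0.48). *Mrpl51* (0.12), *Mrpl48* (-0.08) and *Mrpl54* (0.00) showed no difference beyond their spread.

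In the small subunit, 20 of 26 genes (76.9%) were higher, against 46.9% of all probe sets, and 3 (11.5%) at an unadjusted p under 0.05, against 6.48%. *Mrps26* had the largest difference, from 8.19 in scramble (SD 0.21) to 8.74 in MYTHO-KD (SD 0.05), 0.55 on the log2 scale (standard error 0.161, unadjusted p = 0.00513, adjusted p = 0.194, limma). *Mrps31* went from 10.40 to 10.84, a difference of 0.44 whose unadjusted p of 0.0495 did not hold in 4 of the 7 other settings of the test (0.0501 to 0.0718). *Mrps25* went from 9.41 to 9.83, a difference of 0.42. All 3 are found only in mitochondrial ribosomes. *Mrps12*, whose bacterial homologue S12 lies at the decoding centre, differed by 0.37 (95% interval -0.05 to 0.79). *Mrps5*, linked to lifespan in a panel of inbred mouse strains, had averages of 10.17 (SD 0.31) and 10.31 (SD 0.15), a difference of 0.14 (95% interval -0.27 to 0.55). Of 3 genes mutated in human disorders of mitochondrial translation, *Mrps16* differed by 0.26, *Mrps34* by 0.18 and *Mrps22* by 0.01, each with an interval that includes 0. *Mrps21* (0.27, with an SD of 0.53 in scramble) and *Mrps35* (0.04) did not pass either.

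The members that were lower, apart from *Mrpl45*, lay between -0.42 and -0.01, and none had an unadjusted p under 0.05. The lowest were *Mrps17* (10.48 in scramble, 10.06 in MYTHO-KD, difference -0.42, 95% interval -0.90 to 0.06), *Mrpl53* (-0.38) and *Mrpl15* (10.12 and 9.77, difference -0.35, 95% interval -0.72 to 0.02). *Mrpl33*, a small protein homologous to a bacterial one, was 14.85 (SD 0.07) and 14.56 (SD 0.30), a difference of -0.29. *Mrps17*, *Mrpl53* and *Mrpl15*, like *Mrpl17*, *Mrps25*, *Gabpa* and *Yy1*, were named after their values were seen. The probe set of *Mrpl53* also measures *Ccdc142* and that of *Mrps6* (0.29) also measures *Slc5a3*, so neither value can be assigned to 1 gene.

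**Figure D3:**
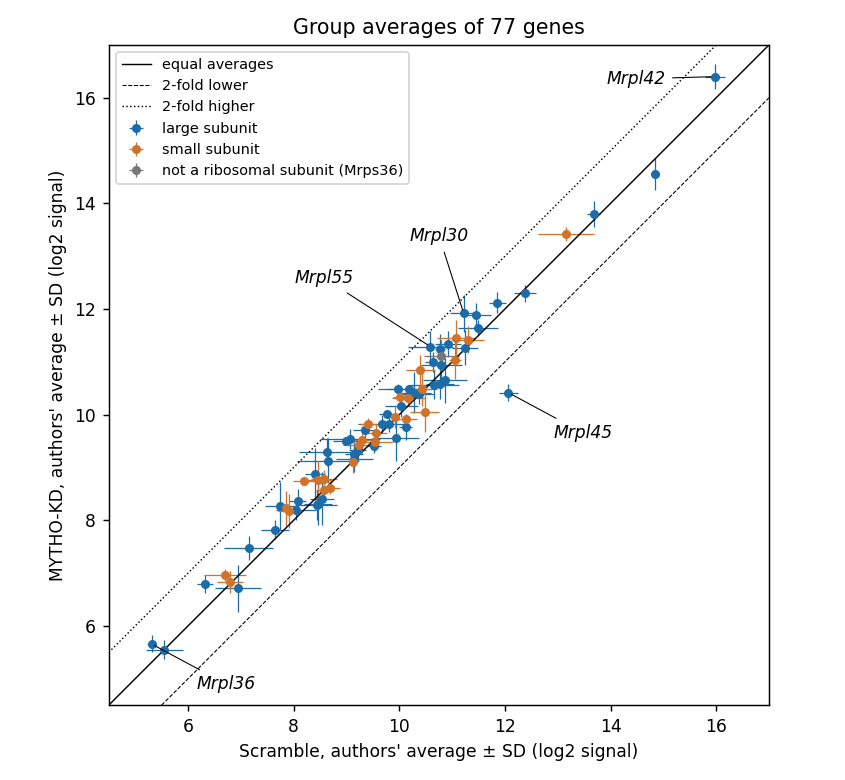
The authors' average log2 signal of each of the 77 genes in scramble (x axis) and MYTHO-KD (y axis), with SDs as bars and 4 arrays per group. Most points lie close to the line of equal averages and somewhat above it, and *Mrpl45* (12.06 and 10.42) is the only point beyond the 2-fold lines.

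By subunit, 36 of 50 large-subunit genes (72%) were higher (median 0.15), 12 of them (24%) at an unadjusted p under 0.05. In the small subunit the median was 0.16, with 3 of 26 (11.5%) higher at that threshold. Over all probe sets, 46.9% were higher, and 6.48% were higher at that threshold. Bacterial homologues had a median of 0.24 with 36 of 46 (78.3%) higher, 8 (17.4%) at that threshold. The genes found only in mitochondrial ribosomes had a median of 0.12 with 20 of 30 (66.7%) higher, 7 (23.3%) at that threshold. The only gene of these classes lower at that threshold was *Mrpl45*. No test was made of these differences between classes. The symbols do not always name the subunit: the products of *Mrps30* (0.01) and *Mrps18a* (0.12) belong to the large subunit and were counted there. The product of *Mrps36* (0.31, 95% interval -0.16 to 0.78) is now known as a component of the 2-oxoglutarate dehydrogenase complex and was counted with neither. All 77 members were marked as expressed in both groups, as were 21222 of all probe sets. Their SDs were close to those of the array, with a median of 0.25 in scramble and 0.22 in MYTHO-KD against 0.27 in each group for all probe sets. The 95% intervals reached, in the median, 0.423 to either side of the difference, and 70 of the 77 intervals excluded a 2-fold change in either direction. The rank correlation between difference and mean signal over the 77 genes was -0.04, a description over genes of the same arrays.

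Lists of genes that work with the mitochondrial ribosome are given next, and differences between lists were not tested. The ribosome's 6 proteins listed under other symbols, among them *Gadd45gip1* (0.20), *Chchd1* (0.23), *Ptcd3* (0.22), *Aurkaip1* (0.10), *Dap3* (0.02) and *Ict1* (0.06), now named *Mrpl58*, were all higher, with a median of 0.15 and 0 at an unadjusted p under 0.05. A list of 17 genes holds mitochondrial translation factors. It also holds others, such as *Oxa1l* and *Cox18*, which insert proteins into the inner membrane, and *Lrpprc* and *Slirp*, which bind RNA. Of these 17 genes, 14 (82.4%) were higher (median 0.11), against 46.9% of all probe sets. At an unadjusted p under 0.05, 2 (11.8%) were higher, against 6.48%. These were *Tufm*, the elongation factor that brings aminoacyl-tRNA to the ribosome (9.14 in scramble, 9.82 in MYTHO-KD, difference 0.68, adjusted p = 0.254, limma), and *Mtrf1l*, a release factor (0.43). *Guf1*, a homologue of the bacterial elongation factor LepA, differed by 0.47 and did not pass. Of 29 genes for assembly of the ribosome and modification of its RNA, 14 were higher and 15 lower (median -0.02). In this list *Mpv17l2* (0.56) and *Rbfa* (0.44) were higher and the helicase *Ddx28* (-0.50) lower at an unadjusted p under 0.05, shares of 6.9% and 3.45% that are close to the 6.48% and 5.52% of all probe sets. Of 13 genes for mitochondrial DNA and its transcription, 5 were higher (median -0.02), and *Mterf1b* (-0.70) and the transcription factor *Tfb2m* (-0.41) were lower at that threshold (15.4% of the list, against 5.52%), while *Polg2* (0.31) did not pass. None of these genes had an adjusted p under 0.05.

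A list of 20 genes holds the mitochondrial aminoacyl-tRNA synthetases, which charge the tRNAs used by this ribosome. It also holds *Qrsl1*, *Gatb* and *Gatc*, which encode subunits of an amidotransferase and not synthetases. The list was split, with 10 of 20 higher and a median of 0.01. *Yars2*, a synthetase gene, was higher (0.50) and *Qrsl1* lower (-0.49) at an unadjusted p under 0.05, and *Gatc* (-0.35) did not pass. These calls are 5% of the list in each direction, no more than the 6.48% and 5.52% of all probe sets. Of 19 genes for mitochondrial protein folding and import, 13 (68.4%) were higher (median 0.07), against 46.9% of all probe sets. At an unadjusted p under 0.05, 3 (15.8%) were higher, against 6.48%, and 2 (10.5%) were lower, against 5.52%. The chaperone *Hspd1* was higher by 0.83 (adjusted p = 0.154, limma), and the chaperone *Trap1* and the protease subunit *Clpp* were lower, with differences of -0.57 and -0.44, all 3 at an unadjusted p under 0.05.

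The 79 nuclear subunits of the respiratory chain and ATP synthase, which assemble with the products of the mitochondrial ribosome, had a median of 0.23. Of these genes, 67 (84.8%) were higher, against 46.9% of all probe sets. At an unadjusted p under 0.05, 17 of them (21.5%) were higher, against 6.48% of all probe sets. Their lowest p-values were those of *Cox7a1* (0.73), *Ndufa2* (0.81) and *Uqcrq* (0.61). The 85 cytosolic ribosomal proteins had the same median of 0.23, with 70 (82.4%) higher and 21 (24.7%) higher at that threshold. Of them, 1, *Rplp0*, passed the adjustment, close to its threshold (difference 1.19, adjusted p = 0.0473, limma). Without moderation, 2 probe sets of the whole array passed the adjustment, and *Rplp0* was not looked at in that setting. *Rplp1* (0.78) and *Rplp2* (0.80), the other stalk proteins of the cytosolic ribosome, had an unadjusted p of 0.00141 each (limma). The mitochondrial ribosomal proteins, with 19.5% at that threshold, are given beside these lists, and whether they differ from either was not tested. In none of the other lists of genes for mitochondria or ribosomes did a member fall at an adjusted p under 0.05, as *Mrpl45* did. Such falls were rare, 21 among all 22206 probe sets, so their absence from these lists does not set the family apart.

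**Figure D4:**
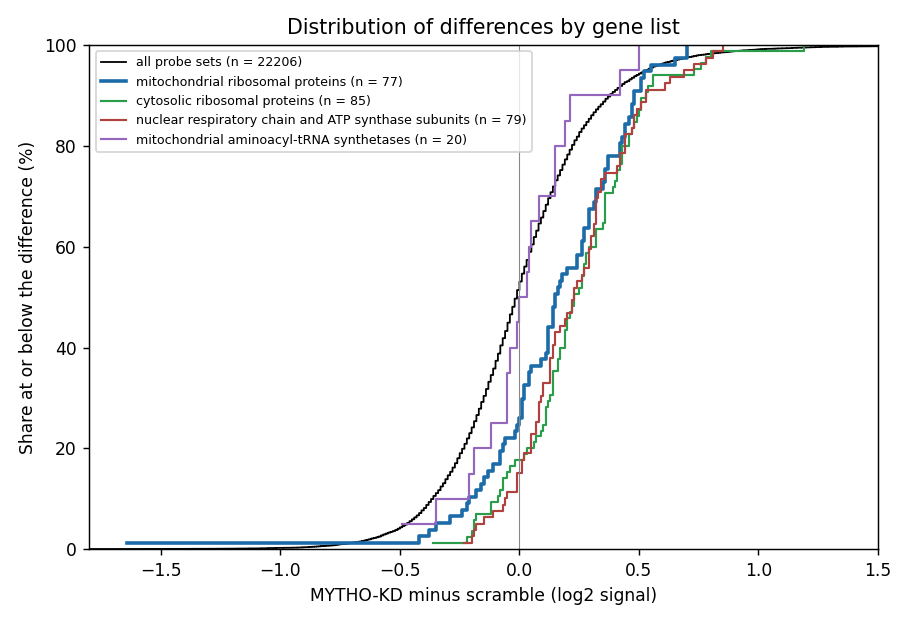
Cumulative share of genes (%, y axis) at or below each difference between MYTHO-KD and scramble (log2, x axis), for all probe sets, the mitochondrial ribosomal proteins and 3 related lists. The curve of the mitochondrial ribosomal proteins (median 0.15) lies, over most of its range, between that of all probe sets (median -0.01) and those of the respiratory chain and cytosolic ribosomal genes (median 0.23 in both), with a long lower tail made by *Mrpl45* alone.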

How the data were processed

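Per the file headers, the deposited table gives for each of 22206 Clariom S Mouse probe sets (annotation on mm10) a log2 average, a standard deviation (SD) and an expression flag per group. The authors made these values in the Transcriptome Analysis Console with SST-RMA; the submitters' processing notes name Affymetrix Expression Console and RMA. SST-RMA rescales the signal so that fold changes come out larger than with RMA, and the kind of average is not given in the sources used here. Columns of the authors' own comparison (fold change, p-value, false discovery rate) were not used. No columns of single arrays were used, because the table analysed is one of group values.

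Differences are MYTHO-KD less scramble. Variances of both groups were averaged (6 residual degrees of freedom) and moderated over all probe sets with squeezeVar of limma 3.58.1 in R 4.3.3 (prior SD 0.284, prior degrees of freedom 5.85). All p-values are two-sided, and adjusted ones are Benjamini-Hochberg values across the 22206 probe sets. The test was tested on simulated data whose groups were drawn as independent arrays, so it does not bear on the pairing of legs. If the averages are robust averages and not plain means, these p-values are somewhat too low. Arrays have no depth; 4 arrays per group limit the precision, and the p-values measure the spread between these muscles. The design used opposite legs, which group averages do not allow to be paired.

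Each member had 1 probe set. Genes were named if they passed the adjustment, were among the 12 largest rises or falls at an unadjusted p under 0.05, had the 5 highest or lowest signals or the 3 largest SDs, or stood in lists by role, with 3 genes per related list; other names are marked. The members, lists and motifs were chosen with earlier results of these data known. As alternatives, the test was run without moderation, with a robust prior that follows signal, with unequal variances, without dim probe sets (under the 30th percentile of signal, 5.72), with 1 probe set per symbol, and after centring on the median or on a lowess curve.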

Additional observations from a re-analysis of the deposited data

How the results depend on the processing

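The 7 other settings of the test left the main counts close to those reported. The members higher at an unadjusted p under 0.05 numbered 12 to 17 (15 as reported), those with a difference above 0 numbered 54 to 58 (57), or 56 of 75 with dim probe sets left out, and their median difference lay between 0.13 and 0.16 (0.15). The members lower at that threshold were 2 without moderation and 2 after centring on a lowess over signal, *Mrpl15* being the addition in both. At an adjusted p under 0.05, 0 members passed without moderation and 0 with unequal variances, because the difference of *Mrpl45* (-1.64 in both) then had an adjusted p of 0.0634 and 0.0867; it lay between 0.000421 and 0.00549 in the rest. At an unadjusted p under 0.05, 16 members were higher and 2 lower without moderation, and 14 and 1 with unequal variances. Over all probe sets, 2 passed the adjustment in each of these 2 settings and 189 with a trend and robust prior, against 61. The targeted gene (-2.31 in both) likewise had an adjusted p of 0.173 and 0.363. Of 229 recomputed values of the 33 other named members, 212 kept their side of the unadjusted threshold, 13 lost it (*Mrpl10* and *Mrps31* in 4 settings each, *Mrpl16* in 2, and *Mrpl18*, *Mrpl36* and *Mrpl37* in 1 each) and 4, all of *Mrpl12*, gained it, and none changed sign across it. Taking the ribosome by its known composition, without *Mrps36* and with 6 proteins under other symbols, gave 82 genes, 62 higher and a median of 0.15. A mean over several probe sets could not be tried, since every member has 1. No paired analysis was possible because the table holds group averages, and for the same reason single arrays could not be dropped.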
